A study of Mus musculus with 6 samples.

Results

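The transforming growth factor beta (TGF-beta) ligand, receptor and latent binding protein genes were read in MC3T3-E1 osteoblasts that had been kept with or without ascorbic acid (AA). Members were every probe set of the array whose platform gene symbol named Tgfb1, Tgfb2, Tgfb3, Tgfbr1, Tgfbr2, Tgfbr3, Ltbp1, Ltbp2, Ltbp3 or Ltbp4. The rule took 10 of 18193 genes with a probe set of their own, and 24 of 45037 probe sets tested, with 7 probe sets for ligands, 8 for receptors and 9 for latent binding proteins. Each of the 24 named a single gene.

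The cells were subclone 4 of MC3T3-E1, a pre-osteoblastic line from mouse calvaria, and so stood for 1 clonal line. Tested cultures received AA at 50 µg/ml for 5 days and control cultures were left without it for the same 5 days. Both groups grew in 6-well plates in α-MEM with 10% heat-inactivated serum, and medium was renewed every 2 days. RNA of 3 AA cultures and 3 control cultures was hybridized to Affymetrix mouse arrays, 1 culture to an array. The sources describe the replicates both as wells and as experiments, so p-values here measure only the spread between these cultures, which may be technical.

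TGF-beta is made as a precursor that is cut in the cell but stays wrapped in its own propeptide, the latency-associated peptide. This latent complex is commonly bound to a latent TGF-beta binding protein (Ltbp), which tethers it to fibrillin microfibrils and fibronectin in the matrix until integrins or proteases release the ligand. Free ligand binds Tgfbr2, which recruits and phosphorylates Tgfbr1, and Tgfbr1 in turn phosphorylates Smad2 and Smad3. Bone matrix is a large store of latent TGF-beta, and AA is the cofactor that collagen prolyl and lysyl hydroxylases need to make that matrix.

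After 5 days in AA, the brightest Tgfb1 probe set was 1.76-fold higher, and 1 probe set each of Tgfb2 and Tgfbr2 was 1.94-fold and 1.48-fold lower. The other 21 probe sets did not pass the test (limma moderated test with the replicate number as a block, Benjamini-Hochberg adjusted p under 0.05 over 45037 probe sets). With 1 of 24 probe sets called higher (4.17%) and 2 called lower (8.33%), the members stood beside 2.71% of all probe sets called higher and 2.50% called lower. By the brightest probe set of each gene, 1 of 10 genes was higher and 2 were lower, against 4.06% and 3.83% of 18193 genes. The shares over all probe sets and all genes were not matched for signal. With the mean of each gene's probe sets in place of the brightest, none of the 3 passed in limma, with log2 fold changes of 0.49 for Tgfb1 (adjusted p = 0.139), -0.60 for Tgfb2 (0.0510) and -0.996 for Tgfbr2 (0.0888). These RNAs came from whole cultures, where fewer cells of a type and less RNA per cell cannot be told apart.

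The 3 genes with a called probe set had upstream windows of different makeup. Each is shown as the 250 bases before the RefSeq start of the gene on GRCm38.p6, 5′ to 3′ on the strand of the gene, with 5 short motifs searched on both strands in capitals. The motifs were the TATA box TATAAA, the GC box GGGCGG, the CCAAT box CCAAT, the E-box CACGTG and the SMAD box CAGAC, and CACGTG is its own reverse complement. No 2 matches overlapped in the windows shown for Tgfb1 (chr7:25686752-25687001, plus strand), Tgfb2 (chr1:186705990-186706239, minus strand) and Tgfbr2 (chr9:116175364-116175613, minus strand).
Tgfb1: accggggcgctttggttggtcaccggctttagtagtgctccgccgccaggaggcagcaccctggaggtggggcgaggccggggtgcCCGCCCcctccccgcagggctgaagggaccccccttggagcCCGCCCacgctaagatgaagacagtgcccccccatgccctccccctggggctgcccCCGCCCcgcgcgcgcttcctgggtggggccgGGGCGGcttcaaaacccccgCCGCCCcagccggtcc
Tgfb2: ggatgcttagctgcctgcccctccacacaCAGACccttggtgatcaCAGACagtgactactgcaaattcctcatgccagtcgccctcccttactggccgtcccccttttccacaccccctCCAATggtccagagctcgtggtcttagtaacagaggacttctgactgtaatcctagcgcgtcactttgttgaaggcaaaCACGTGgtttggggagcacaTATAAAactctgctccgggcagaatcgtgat
Tgfbr2: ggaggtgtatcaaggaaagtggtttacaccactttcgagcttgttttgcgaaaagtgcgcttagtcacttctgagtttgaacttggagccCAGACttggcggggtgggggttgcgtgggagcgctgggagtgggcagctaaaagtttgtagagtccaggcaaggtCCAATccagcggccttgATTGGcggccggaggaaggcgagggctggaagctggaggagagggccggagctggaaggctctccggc
The Tgfb1 window was 75.2% G and C, against a median of 52.4% over 32851 windows of this length, and held 5 GC boxes and none of the other 4 motifs. The Tgfb2 window was 53.6% G and C and held 1 TATA box with its first base 31 bases before the start, 1 E-box, 1 CCAAT box and 2 SMAD boxes, with no GC box. The Tgfbr2 window, at 58.4% G and C, held 2 CCAAT boxes and 1 SMAD box. These are letter matches, and their use as sites in these cells was not tested.

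Among all 32851 windows, 12.4% held TATAAA, 32.7% GGGCGG, 33.8% CCAAT, 6.02% CACGTG and 42.2% CAGAC on either strand. RefSeq windows were matched for 8 of the 10 genes, which had 12 windows in all. Of these 12 windows, 1 held a TATA box, 6 a GC box, 5 a CCAAT box, 1 an E-box and 7 a SMAD box. Tgfb2 was the 1 gene among these 8 with TATAAA in its window. 2 of the 3 Ltbp4 windows overlapped each other.

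Tgfb1 encodes the ligand for which bone matrix is best known as a reservoir. Its brightest probe set, 1420653_at, had deposited signals of 267, 197 and 185 in AA replicates 1, 2 and 3, against 175, 99.1 and 110 in control replicates 1, 2 and 3. Every AA culture lay above every control culture, although control replicate 1 came close to the lowest AA culture. The means were 216 ± 44.6 in AA and 128 ± 40.9 in control (SD, n = 3 each), a log2 fold change of 0.82 (SE 0.12, 95% interval 0.54 to 1.10, adjusted p = 0.00828 by limma). Between same-numbered cultures, which were not shown to be paired, the log2 difference was 0.66, 1.06 and 0.73. With all arrays kept, this call needed the replicate block, since without it the adjusted p was 0.0778. It was also lost without replicate 2 (adjusted p = 0.0651). In the fits that left out a single array, which had no block, it passed only without control replicate 1 (limma adjusted p = 0.0160). The other Tgfb1 probe set, 1445360_at, averaged 18.9 ± 2.58 in AA and 16.3 ± 0.93 in control and did not pass (log2 fold change 0.16, adjusted p = 0.858).

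Tgfb2 encodes a second isoform of the ligand, which in mice is needed for normal skeletal and heart development. It had 4 probe sets, 3 of which were annotated to the same sequence record and did not give the same result. The brightest, 1450923_at, read 95.9, 67.6 and 89.0 in AA, against 115, 180 and 214 in control. The groups did not overlap, with AA replicate 1 and control replicate 1 nearest to each other. Means were 84.2 ± 14.8 in AA and 169 ± 50.3 in control, a log2 fold change of -0.96 (SE 0.22, 95% interval -1.45 to -0.47, adjusted p = 0.0426). The same-numbered differences were -0.23, -1.38 and -1.26, so replicate 1 showed much less of it than the other two. The call was lost without replicate 2 (adjusted p = 0.203), without replicate 3 (0.0952) and with a pseudocount of 50 (0.103).

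The other 3 Tgfb2 probe sets were lower on average in AA and none passed. The second, 1423250_a_at, read 94.0, 111 and 101 in AA, against 137, 116 and 99.0 in control. Its ranges overlapped, and its log2 fold change was -0.17 (95% interval -0.51 to 0.16, adjusted p = 0.619). The third, 1450922_a_at, did not overlap, with 58.6, 71.6 and 55.7 in AA against 80.1, 109 and 121 in control (log2 fold change -0.71, SE 0.17, adjusted p = 0.0602). It passed with the signals as deposited (adjusted p = 0.0405), with median centring (0.0244) and among probe sets above the median signal (0.0336). The fourth, 1438303_at, was dimmer and also did not overlap, with 12.7, 17.2 and 19.3 in AA against 21.5, 26.2 and 21.5 in control (log2 fold change -0.56, SE 0.30, adjusted p = 0.385). Differences between the probe sets of Tgfb2 were not tested.

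Tgfb3, the third ligand isoform, which in mice is needed for palate fusion, had 1 probe set. It read 354, 309 and 317 in AA, against 373, 363 and 341 in control. The groups overlapped and the log2 fold change was -0.09 (95% interval -0.30 to 0.11, adjusted p = 0.671).

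**Figure D1:**
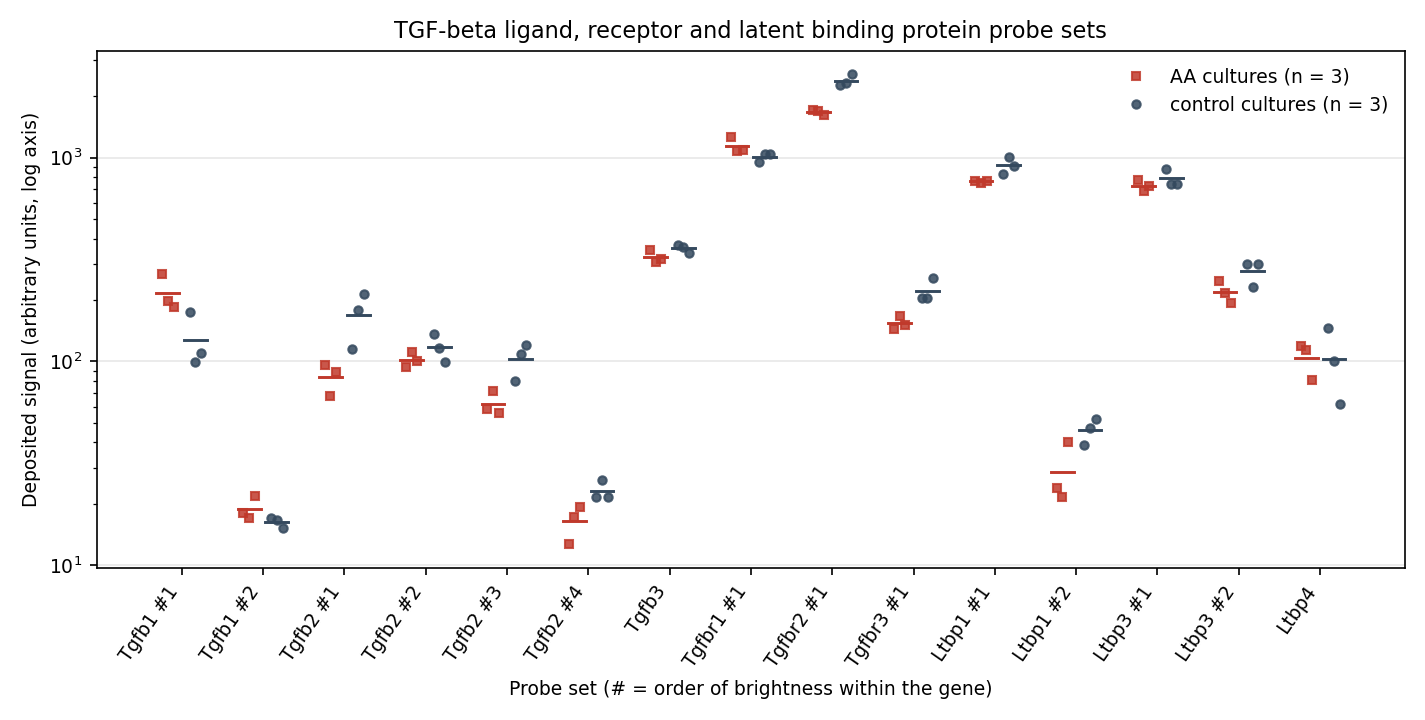
Deposited signal (arbitrary units, log axis) of the 15 member probe sets above the median signal of all probe sets, in 3 AA cultures (squares) and 3 control cultures (circles), with bars at the group means. The brightest Tgfb1 and Tgfbr1 probe sets have all AA points above all control points, whereas 3 Tgfb2 probe sets and the brightest Tgfbr2, Tgfbr3 and Ltbp1 probe sets have all AA points below.

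Tgfbr2 encodes the type II receptor, the kinase that binds ligand first. Its brightest probe set, 1426397_at, read 1711, 1697 and 1617 in AA, against 2282, 2315 and 2567 in control. The groups were well apart, and the AA cultures lay within a narrow band. Means were 1675 ± 50.8 in AA and 2388 ± 156 in control (SD, n = 3 each), a log2 fold change of -0.56 (SE 0.07, 95% interval -0.73 to -0.39, adjusted p = 0.00511). The same-numbered differences were -0.46, -0.53 and -0.69. Control replicate 3, which had the highest Tgfbr2 signal, also had the highest Gapdh 3′ to 5′ signal ratio, at 0.921 against 0.791 to 0.809 on the other 5 arrays. Its actin 3′ to 5′ ratio was the highest too, at 1.79 against 1.35 to 1.45. The brightest Tgfb2 and Tgfbr3 probe sets also had their highest signals on this array. Without that array the Tgfbr2 log2 fold change was -0.51 and still passed, as it did in all 9 fits that left out a replicate number or an array (-0.61 to -0.50, adjusted p 0.00458 to 0.0292).

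A second Tgfbr2 probe set, 1425444_a_at, lay below the median signal of all probe sets. It read 1.12, 10.4 and 2.76 in AA, against 22.2, 18.2 and 29.1 in control. Here too the groups did not overlap, but the AA cultures were widely scattered and the adjusted p was 0.0567 (log2 fold change -2.89, SE 0.70). It passed with the signals as deposited (adjusted p = 0.0467), with median centring (0.0246) and without replicate 2 (0.0256). The third, 1422019_at, averaged 3.83 in AA and 2.60 in control.

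Tgfbr1 encodes the type I receptor, the kinase that phosphorylates Smad2 and Smad3. Its brightest probe set, 1420895_at, read 1261, 1078 and 1090 in AA, against 954, 1036 and 1041 in control. The AA cultures all lay above the control cultures, by a small margin for AA replicate 2. The means were 1143 ± 102 in AA and 1011 ± 49.0 in control, and the difference did not pass (log2 fold change 0.17, 95% interval -0.04 to 0.38, adjusted p = 0.397). The other 2 Tgfbr1 probe sets were dim, averaging 8.59 and 5.46 in AA against 7.16 and 3.55 in control.

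Tgfbr3 encodes betaglycan, a co-receptor without a kinase that presents ligand, Tgfb2 in particular, to the type II receptor. Its brightest probe set, 1433795_at, read 143, 168 and 151 in AA, against 204, 205 and 256 in control. The groups did not overlap. The means were 154 ± 12.6 in AA and 222 ± 29.3 in control, a log2 fold change of -0.49 (SE 0.12, 95% interval -0.77 to -0.20, adjusted p = 0.0676). It passed with the signals as deposited (adjusted p = 0.0431), with median centring (0.0408) and among probe sets above the median signal (0.0464).

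**Figure D2:**
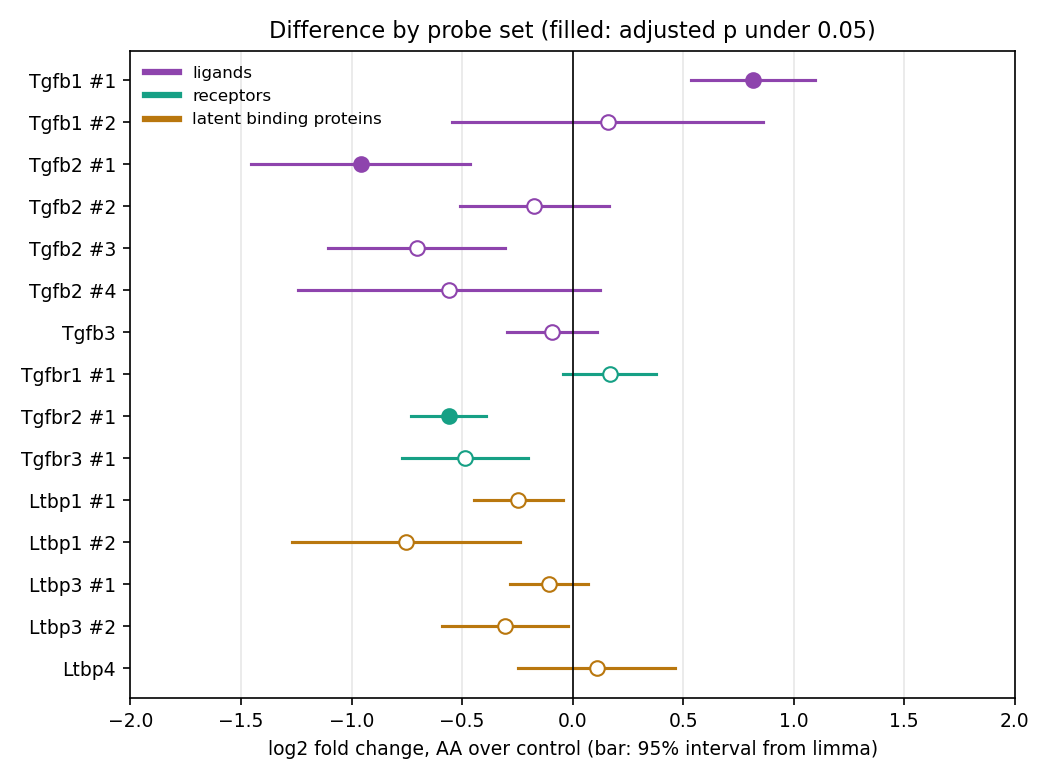
Log2 fold change, AA over control, of the same 15 probe sets (points) with 95% intervals from limma (bars), coloured by role and filled where the adjusted p was under 0.05. Filled points are Tgfb1 at 0.82, Tgfb2 at -0.96 and Tgfbr2 at -0.56, and no latent binding protein is filled.

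No probe set of the latent binding proteins passed the limma test. At an unadjusted p under 0.05, 3 of the 9 were lower (33.3%, against 9.41% of all probe sets). They were Ltbp1 1448870_at and 1447547_at and Ltbp3 1418049_at. Ltbp1, a carrier of latent TGF-beta in many tissues, had 771, 751 and 772 in AA at its brightest probe set, 1448870_at, against 832, 1007 and 908 in control. The AA cultures were close together and all below the control cultures. The log2 fold change was -0.25 (SE 0.09, 95% interval -0.45 to -0.04, adjusted p = 0.182). Its second probe set, 1447547_at, read 23.8, 21.6 and 40.3 in AA, against 38.7, 47.2 and 52.2 in control. Here AA replicate 3 lay within the control range, and the adjusted p was 0.110 (log2 fold change -0.75, SE 0.22). Among probe sets above the median signal alone it passed (adjusted p = 0.0479).

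Ltbp3, which in mice is needed for normal growth of the skull base and long bones, had 781, 684 and 725 in AA at its brightest probe set, against 884, 746 and 746 in control. The groups overlapped and did not pass (log2 fold change -0.11, adjusted p = 0.549). A second Ltbp3 probe set, 1418049_at, read 248, 217 and 193 in AA, against 302, 233 and 302 in control (log2 fold change -0.31, 95% interval -0.59 to -0.02, adjusted p = 0.238). Ltbp4, which also takes part in elastic fibre assembly, read 119, 114 and 80.9 in AA, against 146, 101 and 61.8 in control. Control cultures of Ltbp4 spanned the whole AA range, and its log2 fold change of 0.11 (95% interval -0.25 to 0.46, adjusted p = 0.793) changed sign without replicate 3. Ltbp2, which does not bind latent TGF-beta, was dim at its only probe set, with 3.33, 2.57 and 3.84 in AA against 2.76, 5.06 and 0.753 in control (log2 fold change 0.48, 95% interval -1.43 to 2.40, adjusted p = 0.837).

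Of the 24 member probe sets, 15 lay above the median signal of all probe sets and 9 below it. The 9 dim ones had mean signals of 1.80 to 23.1 and none passed (adjusted p 0.0567 to 0.978). On the normalized scale, all AA cultures lay above all control cultures in 2 of 24 probe sets (8.33%, against 11.0% of all probe sets) and below them in 7 (29.2%, against 12.0%). At an unadjusted limma p under 0.05, 1 was higher (4.17%, against 8.58% of all probe sets) and 8 were lower (33.3%, against 9.41%). The median log2 fold change was -0.24 over the 24 probe sets, against -0.01 over all probe sets. Among the 15 brighter ones 11 had a negative value. Several of these probe sets read the same transcript, so they are not independent of each other.

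Across the 6 arrays, the signal of the brightest Tgfbr2 probe set was most closely followed by those of Hp1bp3 (Pearson r = 0.9988), Irx5 (0.9979), AA467197 (0.9969), Mif (0.9969) and Fbxw11 (0.9968), out of 10821 genes above the median signal. The 6 points share their arrays and their 2 groups, and the correlations are given as a description.

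The steps around the ligand were read from lists of other pathway genes, each gene by its brightest probe set. Over 6 lists with 114 measured genes, 9 were higher (7.89%) and 10 were lower (8.77%) in AA, against 4.06% and 3.83% of all genes. The 2 sets were not matched for signal. In the lists, in the order below, 14 of 19, 10 of 12, 28 of 28, 27 of 32, 7 of 12 and 7 of 11 genes lay above the median. Of all 18193 genes, 10821 besides Tgfbr2 did. Among 22518 probe sets above the median, fitted alone, 1568 were called higher and 1575 lower. The median log2 fold change over the 114 genes was -0.06, against -0.02 over all genes. Plat, Bambi, Lox, Timp3, Ankrd1, Tagln and Actg2 passed in all 9 fits that left out a replicate number or an array, and the other 12 called genes were lost in at least 1 of them.

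Among genes that cut or activate the latent complex, 3 of 19 were higher in AA, none was lower and 16 did not pass, and 8 of the 19 had a negative log2 fold change. At an unadjusted limma p under 0.05, 5 of the 19 were higher and 3 were lower, against 8.58% and 9.41% of all probe sets, not matched for signal. Plat, the tissue plasminogen activator that turns plasminogen into plasmin, averaged 270 ± 23.1 in AA and 156 ± 19.4 in control (log2 fold change 0.82, adjusted p = 0.00530). Mmp14, a membrane-anchored collagenase, averaged 3197 ± 337 in AA and 2285 ± 40.5 in control (0.41, adjusted p = 0.0131), and all 3 of its probe sets were higher. Pcsk6, a furin-like convertase, averaged 257 ± 95.2 in AA and 173 ± 43.5 in control (0.57, adjusted p = 0.0243), with overlapping ranges and an adjusted p of 0.290 without the block. Mmp14 was lost with median centring (adjusted p = 0.133). Bmp1, a procollagen C-proteinase that can also cut Ltbp1, did not pass at its brightest probe set (0.55, adjusted p = 0.106), although 1 of its 3 probe sets was called higher.

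Among microfibril and matrix partners of the latent complex, 1 of 12 was higher, 2 were lower and 9 did not pass, and 9 of the 12 had a negative log2 fold change. At an unadjusted limma p under 0.05, 1 of the 12 was higher and 7 were lower, against 8.58% and 9.41% of all probe sets. These shares include dim probe sets, whereas 10 of the 12 genes lay above the median signal at their brightest probe set. Fbn2, a fibrillin that builds microfibrils, averaged 597 ± 126 in AA and 1075 ± 160 in control (log2 fold change -0.85, adjusted p = 0.00115), and both of its probe sets were lower. Adamtsl3, an ADAMTS-like matrix glycoprotein, averaged 553 ± 53.7 in AA and 1030 ± 229 in control (-0.86, adjusted p = 0.00317). Decorin, Dcn, a small proteoglycan that binds TGF-beta, averaged 6508 ± 792 in AA and 4411 ± 954 in control (0.47, adjusted p = 0.0202), and was lost with median centring (adjusted p = 0.146) and without replicate 2 (0.106). Ranges of AA and control cultures were apart for Fbn2, Adamtsl3 and Dcn. Fmod did not pass at its brightest probe set (-0.25, adjusted p = 0.0886), although 4 of its 6 probe sets were called lower.

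Of 28 signal transduction and feedback genes, 1 was higher, 1 was lower and 26 did not pass, and 21 of the 28 had a negative log2 fold change. The share of negative values over all genes was not counted. At an unadjusted limma p under 0.05, 2 were higher and 8 were lower, against 8.58% and 9.41% of all probe sets. That comparison is not like for like, since all 28 genes lay above the median signal at their brightest probe set. Of 22518 probe sets above the median, fitted alone, 6730 were under 0.05 in either direction, against 8100 of all 45037. Bambi, a pseudoreceptor that lacks a kinase and blocks type I receptor signalling, averaged 279 ± 23.1 in AA and 105 ± 3.22 in control (log2 fold change 1.43, adjusted p = 5.90e-04). Its lowest AA culture read 252 and its highest control culture 109. Stub1, a ubiquitin ligase that can target Smad3, averaged 1435 ± 149 in AA and 1781 ± 19.5 in control (-0.35, adjusted p = 0.0460), and was lost with the signals as deposited (adjusted p = 0.101). Smad3 itself did not pass (-0.31, adjusted p = 0.0636), nor did the inhibitory Smad7 (0.07, adjusted p = 0.910).

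Of 32 genes known as TGF-beta targets in other cells, 3 were higher, 6 were lower and 23 did not pass, with a median log2 fold change of 0.05. A negative value was found for 14 of the 32. At an unadjusted limma p under 0.05, 6 were higher and 9 were lower, against 8.58% and 9.41% of all probe sets, not matched for signal. Timp3, an inhibitor of metalloproteinases, averaged 601 ± 16.1 in AA and 1883 ± 50.6 in control (-1.66, adjusted p = 4.41e-05), and all 4 of its probe sets were lower. Ankrd1, an ankyrin repeat protein of muscle and stressed cells, averaged 24.0 ± 7.07 in AA and 164 ± 6.19 in control (-2.82, adjusted p = 4.68e-04). For both genes the groups were far apart beside their spread. Also lower were Tagln, an actin-binding protein (-0.67, adjusted p = 0.00405), Actg2, a smooth muscle actin (-0.57, adjusted p = 0.00569), and Myl9, a myosin light chain (-0.34, adjusted p = 0.0313), and Myl9 was lost without the block (0.117). Other cytoskeletal genes of the list did not pass, namely Acta2 (-0.12, adjusted p = 0.383), Tpm1 (-0.14, 0.361), Cnn1 (0.29, 0.913) and Vcl (-0.04, 0.841). Ccn2, a matricellular growth factor also called CTGF, averaged 177 ± 129 in AA and 341 ± 110 in control (-1.10, adjusted p = 0.0147), with overlapping ranges and an adjusted p of 0.205 without the block.

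The 3 targets that were higher in AA have other roles. Lox, the lysyl oxidase that cross-links collagen and elastin, averaged 4985 ± 797 in AA and 2839 ± 192 in control (log2 fold change 0.72, adjusted p = 0.00105). Sphk1, a sphingosine kinase, was higher by 0.82 (adjusted p = 0.0120) and Bhlhe40, a transcriptional repressor, by 0.71 (adjusted p = 0.0131). Sphk1 passed at 1 of its 2 probe sets and in 4 of 9 leave-out fits. Counted by any probe set, 5 of the 32 targets were higher and 7 were lower. Tsc22d1 was called lower at 2 of 7 probe sets, although its brightest was at 0.21 and did not pass (limma adjusted p = 0.132).

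Of 12 other receptors and co-receptors of the superfamily, 1 was higher, 1 was lower and 10 did not pass. A negative log2 fold change was found for 10 of the 12, but only 7 of the 12 lay above the median signal. Bmpr1a, a type I receptor for bone morphogenetic proteins, averaged 658 ± 15.1 in AA and 878 ± 25.6 in control (-0.41, adjusted p = 0.0197), and was lost without replicate 2 (0.124). Amhr2, the receptor of anti-Müllerian hormone, averaged 53.8 ± 5.05 in AA and 26.7 ± 4.51 in control (1.02, adjusted p = 0.0285) at a probe set whose suffix marks possible cross-hybridization, and was lost without replicate 2 (0.169). None of 11 activins, nodal and related ligands passed the limma test, with 1 higher at an unadjusted p under 0.05, and 4 of the 11 had a negative value. The value for Inhba, the subunit of activin A, was 0.11 on the log2 scale and did not pass (adjusted p = 0.465).

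**Figure D3:**
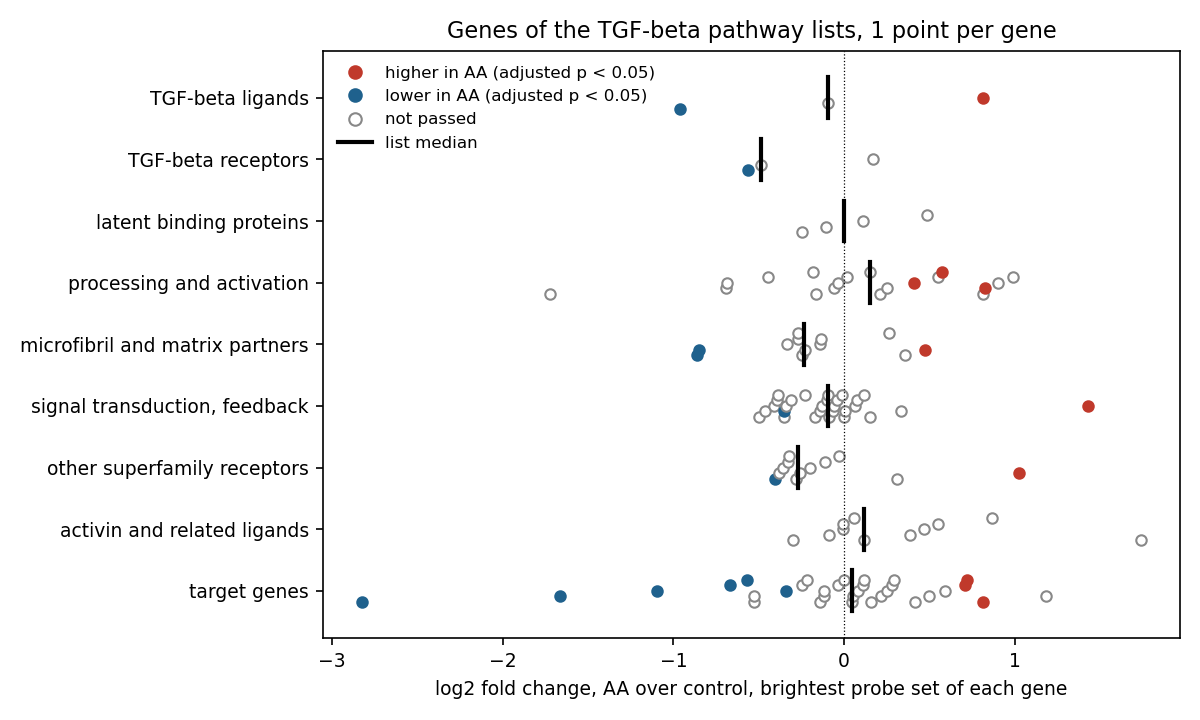
Each point is the log2 fold change (AA over control) of 1 gene at its brightest probe set, in the 3 member groups and the 6 pathway lists, with the median of each list as a bar. Points are filled where the adjusted p was under 0.05, such as Bambi at 1.43 and Ankrd1 at -2.82, and most points in every pathway list are open.

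The cells are labelled osteoblastic, and of 10 osteoblast markers 8 lay above the median signal of all probe sets, all but Phex and Dmp1. Of the 10, Alpl, Ibsp, Pth1r and Ifitm5 were higher in AA and the other 6 did not pass. Over all genes by the brightest probe set, 4.06% were called higher and 3.83% lower. The summed signal of the 10 was 31049 to 41067 in AA and 24414 to 29300 in control. Of 10 myofibroblast and smooth muscle markers, Smtn was higher (440 ± 64.7 in AA and 274 ± 29.4 in control, log2 fold change 0.72, adjusted p = 0.00970), Tagln and Actg2 were lower and 7 did not pass, with sums of 15542 to 17671 in AA and 17098 to 19392 in control. Of 8 chondrocyte markers 2 were higher, Hapln1 and Col2a1, and 6 did not pass, with sums of 646 to 819 in AA and 405 to 498 in control. Of the 8, 4 had a negative log2 fold change, among them Sox9 (169 ± 4.68 in AA and 220 ± 47.4 in control, -0.33, adjusted p = 0.283). The 9 macrophage and leukocyte markers summed to 508 to 573 in AA and 451 to 544 in control. Csf1r was higher and 8 did not pass, and 6 of the 9 had a negative log2 fold change. The brightest, Lyz2, averaged 324 ± 24.9 in AA and 378 ± 40.2 in control (log2 fold change -0.18, limma adjusted p = 0.496). The pan-leukocyte marker Ptprc averaged 2.79 in AA and 1.19 in control. Adipocyte markers summed to at most 85.5 on any array, skeletal muscle markers to 59.7 and endothelial markers to 44.4. The part of these markers in the values of the TGF-beta genes was not tested.

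The calls of the 3 member probe sets did not carry the same weight across settings. The brightest Tgfbr2 probe set passed with every scaling, with and without the block and in every leave-out fit. It did not pass without the variance trend (limma adjusted p = 0.400). It also missed both thresholds of the methods' t-test, on p and on fold. Tgfb1 and Tgfb2 kept their directions in all of these settings and each lost the call in most of them. When the variance was not allowed to follow the mean signal, limma called 0 probe sets in the whole table, with 5203 at an unadjusted p under 0.05, and the methods' paired t-test likewise called 0 after Benjamini-Hochberg adjustment, with 5439.

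**Figure D4:**
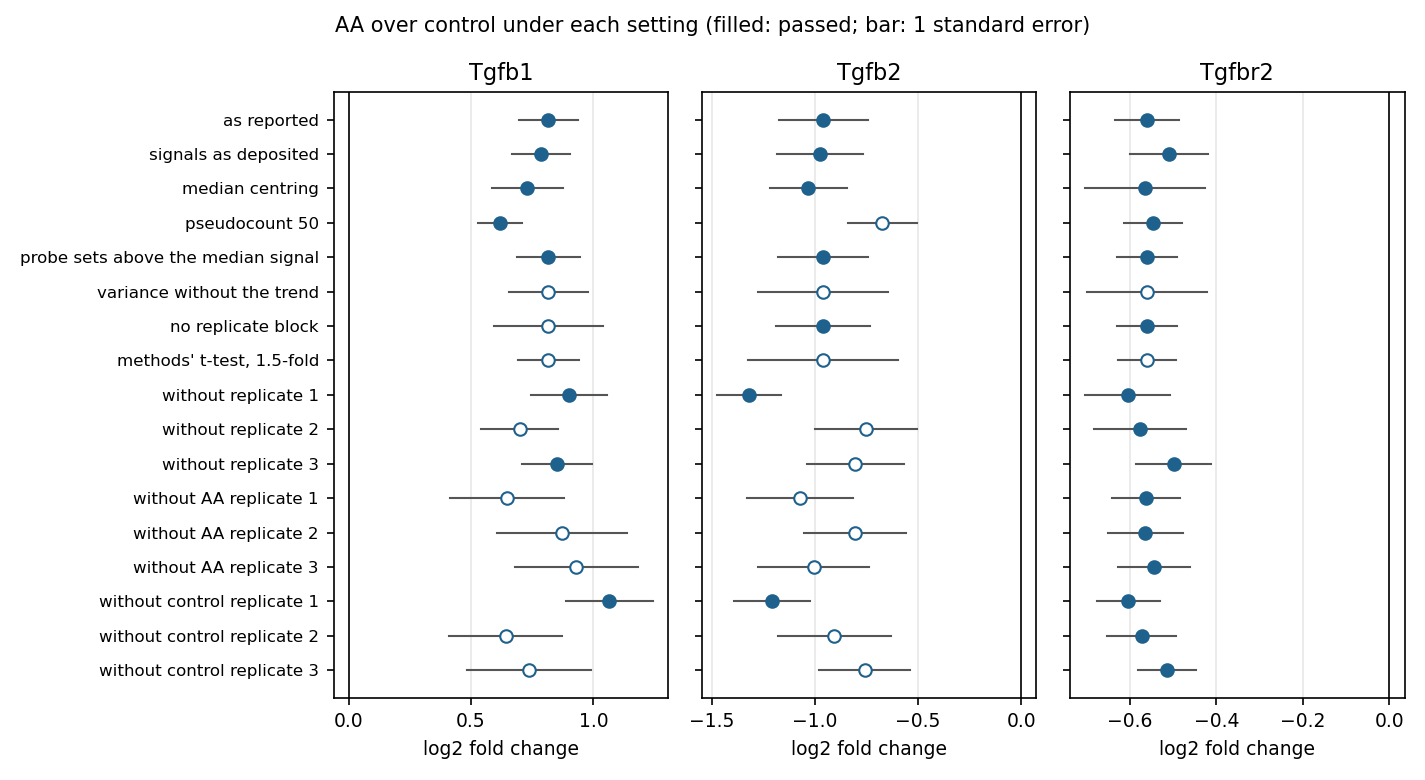
Log2 fold change, AA over control (points) with 1 standard error (bars), of the called Tgfb1, Tgfb2 and Tgfbr2 probe sets as reported and under each other setting, filled where the difference passed. Every point lies on the same side of 0 as the reported value, and the Tgfbr2 points range from -0.61 to -0.50.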

How the data were processed

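RNA of 3 AA and 3 control cultures was hybridized to Affymetrix Mouse 430 2.0 arrays. The authors deposited linear MAS5 signal (intensity) values, scaled so that every array has the same trimmed mean of 150 (2% cut at each end), without detection calls, so which probe sets were above background is not given here. Values from another summary named in the methods were not used here. 64 control probe sets were set aside. The deposited signals were log2-transformed without a pseudocount, quantile-normalized and fitted with limma 3.58.1 (R 4.3.3) with condition and the replicate number as a block, since the methods name paired tests, and a variance trend on mean signal. P-values were adjusted over 45037 probe sets by Benjamini-Hochberg at 0.05. The number of arrays limits the precision. The brightest probe set stands for a gene. Named pathway genes were those past the threshold in their list, with a few that define their list. The code was tested on simulated data. Members and lists were chosen with earlier results of these data known. Motif shares were counted over RefSeq windows of 250 bases. Alternatives were other scalings, a pseudocount, a filter, no trend, no block, the methods' t-test and leave-outs.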

Additional observations from a re-analysis of the deposited data

How the results depend on the processing

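The count of member probe sets higher in AA, 1 as reported, was 0 without the variance trend, without the replicate block and by the methods' t-test with either threshold, and 0 to 1 over the fits that left out a replicate number or an array. The count lower in AA, 2 as reported, was 5 with the signals as deposited, with median centring and among probe sets above the median signal, 1 with a pseudocount of 50, 0 without the trend and by either form of the methods' t-test, and 1 to 3 over the leave-out fits. The 9 pathway genes higher in AA became 0 without the trend, 2 by the methods' t-test at its own thresholds and 0 after adjustment, with 4 to 10 over the leave-out fits. The 10 lower became 19 among probe sets above the median signal, 0 without the trend, 3 and 0 by the t-test, and 4 to 10 over the leave-out fits, with 6 without replicate 2, 4 without AA replicate 2 and 6 without control replicate 2 or 3.

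Replicate numbers were shared by both groups. The correlation of same-numbered deviations was 0.18, 0.03 and 0.09, against -0.14 to 0.05 between differently numbered cultures. These values are small, and the numbers were not shown to pair the cultures. Without the block the pathway counts were 8 higher and 9 lower, and the member counts 0 and 2. In the single-array leave-outs, which had no block, Tgfb1 had adjusted p-values of 0.0160 to 0.236 and Tgfb2 0.0112 to 0.173. Tgfb1 and Tgfb2 both lost their call without AA replicate 1, 2 or 3 or control replicate 2 or 3. Counting a pathway gene by any probe set, an alternative chosen after seeing the data, gave 13 higher and 12 lower.

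All 51 alternative values of the 3 called probe sets kept their direction and 27 passed. Values that changed sign belonged to uncalled results. The mean over Tgfbr1 probe sets was -0.0675. The means over the probe sets of Tgfb1 (0.49), Tgfb2 (-0.60) and Tgfbr2 (-0.996) kept their direction and did not pass. Ltbp3 1437833_at was 0.0065 as deposited and -0.35 to 0.20 over the leave-outs, and Tgfbr1 1420894_at was 0.0437 with a pseudocount of 50 and -1.49 to 1.31. The leave-out ranges were -0.83 to 0.17 for Ltbp1 1419786_at, -0.39 to 1.19 for Ltbp2 1418061_at, -0.19 to 0.40 for Ltbp4 1436665_a_at, -0.12 to 0.46 for Tgfbr1 1420893_a_at, -0.69 to 1.63 for Tgfbr2 1422019_at and -0.98 to 0.28 for Tgfbr3 1425620_at. The cause of these changes was not tested. With 3 arrays a group and no detection calls, the precision at dim probe sets is limited.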
